A study of Mus musculus with 8 samples.

Results

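The comparison described here set LSK cells against hematopoietic stem cells (HSCs) after both populations had been cultured together with red blood cells (RBCs). The members were the 2 LSK libraries and the 2 HSC libraries from these cocultures, 4 of the 8 libraries of the study, and the genes with a value of at least 1 FPKM (fragment counts divided by the length of the transcript and by sequencing depth) in at least 2 of these 4 libraries, which were 11727 of the 24346 genes listed. The remaining 4 libraries, 2 of LSK cells and 2 of HSCs cultured without RBCs, served to ask how far apart the same populations lay in culture alone. All cells came from the bone marrow of wild-type C57BL/6 mice. LSK cells were sorted as lineage-negative, Sca-1-positive and c-Kit-positive, and HSCs were the subset of that gate that was also CD48-negative and CD150-positive, so the LSK libraries also held cells with the HSC phenotype. Both were kept for a day in medium with thrombopoietin and stem cell factor, with RBCs or without; RBCs were then lysed, and sorted CD45-positive cells were sequenced from full-length cDNA with an unstranded kit. The sort after culture used CD45 alone, so a library held whatever CD45-positive cells the culture contained, and in such bulk libraries fewer cells of a type and less RNA per cell cannot be told apart. Nothing in the labels says that replicates came from separate animals or cultures, and the p-values measure the spread between these libraries.

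HSCs are the rare, mostly quiescent cells that give rise to all blood lineages, while most cells of the LSK gate are multipotent progenitors that have begun to express genes of the myeloid or lymphoid lineages. In progenitors, lineage priming shows first in granule proteases such as myeloperoxidase, in receptors such as FLT3, and in the recombination machinery of lymphocytes. Long-term HSCs are known for regulators such as Mecom and Hlf and share several genes with megakaryocytes, the cells that shed platelets.

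The FPKM of all listed genes came to 680942 to 752107 in each library, and 11412 to 11607 genes per library reached 1 FPKM. The steps between low values placed the depth of the 8 libraries at 0.886 to 1.13 times the depth of LSK replicate 1 cultured alone. If the smallest step stands for a single fragment, 1 FPKM on a transcript of 1 kb rested on about 10.4 fragments in the shallowest library and 13.3 in the deepest. This covers counting error only, as fragments were copied by PCR.

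The genes of the sort gate served as a check on the labels. Cd48, which encodes the marker absent from the HSC gate, was 124 and 128 FPKM in the LSK libraries with RBCs and 16.0 and 22.8 FPKM in the HSC libraries. Slamf1, which encodes CD150, was 3.09 and 4.28 FPKM in LSK cells and 5.50 and 6.59 FPKM in HSCs, and did not reach the 2-fold threshold. Both genes separated the populations in the direction of the gate. Kit was 110 and 113 FPKM in LSK cells and 97.6 and 90.8 FPKM in HSCs, and Ptprc, which encodes CD45, was 50.3 and 50.6 FPKM against 38.3 and 40.1 FPKM. Ly6a, which encodes Sca-1 and was selected for in both gates, was 204 and 170 FPKM in LSK cells and 719 and 544 FPKM in HSCs. Of the 5 gate genes, Cd48 was therefore called higher in LSK cells and Ly6a higher in HSCs.

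Between the cocultured populations, 312 genes were higher in LSK cells (2.66% of the genes tested) and 120 were higher in HSCs (1.02%), together 3.68%. The counts of called list members given below are to be read beside these shares. Differences are LSK minus HSC on the log2(FPKM + 1) scale, which understates the change of genes with low values, and a call required a Benjamini-Hochberg adjusted p under 0.05 in limma and a difference of at least 2-fold. In none of the called genes did the LSK and HSC libraries overlap, which with 2 libraries per group adds little to the call. Granule proteases, chemokines, immune receptors and lymphoid genes were among the genes higher in LSK cells, as were many genes outside the lists used here. Differences toward LSK cells were larger, with a median absolute log2 difference of 1.38 against 1.15 for the genes higher in HSCs. A difference of at least 4-fold was reached by 75 genes higher in LSK cells and by 7 higher in HSCs. Many of the calls concerned genes near the floor, since 146 stayed under 5 FPKM in the higher population. Of the called genes, 94 reached 1 FPKM in LSK libraries only and 24 in HSC libraries only. Such genes passed the filter through 1 population and could be called only toward it, which also holds for such members of the lists below. Without the fold threshold the numbers were close to even, with 1459 genes higher in LSK cells and 1521 higher in HSCs. The median difference over all tested genes was 0.01. Rescaling the libraries to a common 75th percentile shifted this median to -0.14 and the split to 248 and 207 genes. Leaving out the second LSK library with RBCs left 200 genes higher in LSK cells. For a single gene, the smallest p that an exact two-sided permutation of 4 libraries can reach is 0.333, so the calls borrow the estimate of spread from all genes.

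**Figure D1:**
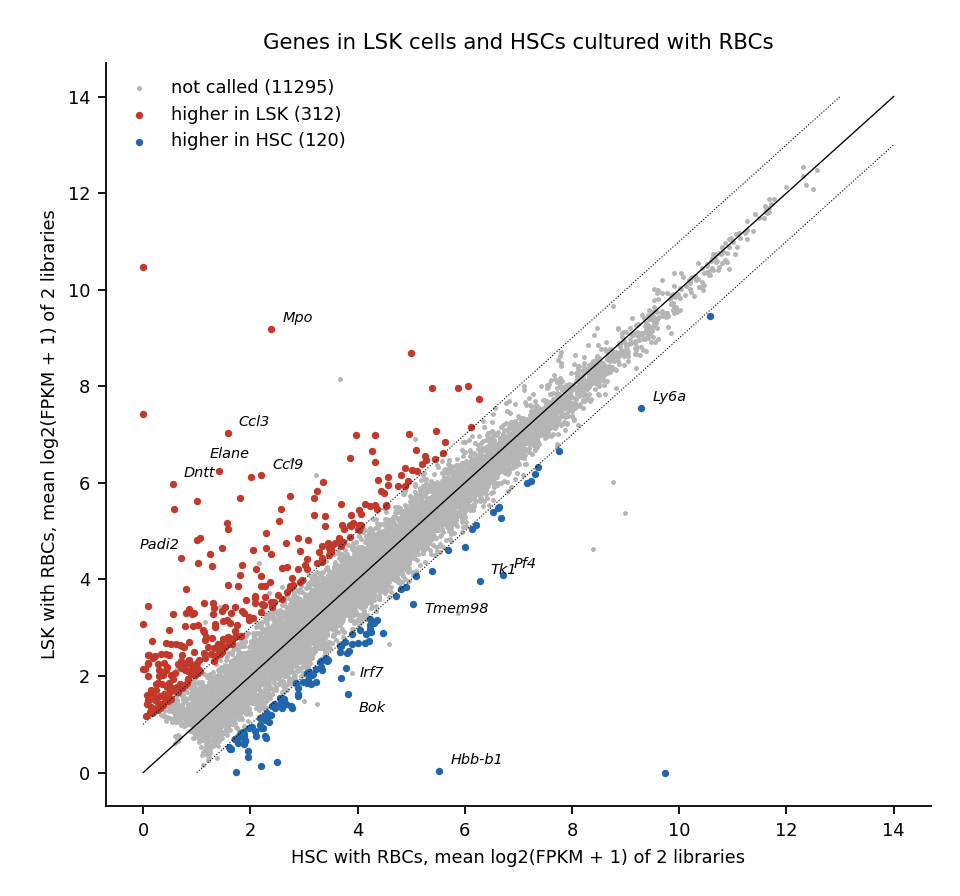
Mean log2(FPKM + 1) of the 2 LSK libraries (vertical axis) against the mean of the 2 HSC libraries (horizontal axis), all with RBCs, with 1 point per tested gene. Red points are the 312 genes called higher in LSK cells, blue points the 120 called higher in HSCs, gray points the other genes, the solid line marks equality and the dotted lines a 2-fold difference; the red points reach farther from the line than the blue ones.

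Several granule genes of early myeloid cells were among the 12 largest differences. Mpo, the gene of myeloperoxidase, was 579 and 581 FPKM in LSK cells and 6.16 and 2.82 FPKM in HSCs, a log2 difference of 6.80 ± 0.27 (SE; limma, Benjamini-Hochberg adjusted p = 7.31e-07). Both LSK libraries lay far above both HSC libraries, and the noncoding gene Gm11505 on the other strand of Mpo cannot be told apart from it in unstranded libraries. Ctsg, which encodes cathepsin G, was 42.9 and 43.3 FPKM against 1.06 and 0.0852 FPKM (4.88 ± 0.25, adjusted p = 2.91e-06). Elane, which encodes neutrophil elastase, was 84.2 and 65.7 FPKM against 3.77 and 0.476 FPKM (4.83 ± 0.44, adjusted p = 8.16e-05). The third granule protease of this kind, Prtn3, was abundant in both populations, with 359 and 384 FPKM against 208 and 216 FPKM, and its difference of 0.80 stayed under 2-fold. Of the 26 tested genes of the primary granule and early myeloid list, 14 were higher in LSK cells, none was higher in HSCs, and all 26 had values above 0 (median 1.27, against 0.01 for all genes). Among the 14 were the myeloid regulator Irf8, at 46.0 and 59.3 FPKM against 5.28 and 6.05 FPKM, the inhibitory lectin receptor Clec12a, at 20.8 and 23.5 against 2.01 and 0.869 FPKM, and the macrophage growth factor receptor Csf1r, at 47.2 and 54.3 against 7.07 and 9.37 FPKM. Mcpt8, a protease of basophils that lies beside Ctsg, was 13.6 and 3.89 FPKM in LSK cells and listed at 0 in both HSC libraries.

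Markers of later myeloid cells were read as a check on what the cultures contained. Of 14 tested genes of late neutrophils, 6 were higher in LSK cells (median 1.48, and 0.38 to 1.85 over single pairs of libraries). Retnlg, a resistin-like gene of neutrophils, was 61.5 and 41.7 FPKM in LSK cells and 0.965 and 5.29 FPKM in HSCs (log2 difference 3.88 ± 0.46, adjusted p = 0.000442). S100a8, a calcium-binding protein that fills the neutrophil cytosol, was 303 and 204 FPKM in LSK cells and 148 and 22.3 FPKM in HSCs, so the first HSC library lay much closer to the LSK libraries than the second. The summed value of the list was 660 and 451 FPKM in LSK cells and 307 and 81.0 FPKM in HSCs with RBCs, against 179 and 290 FPKM in LSK cells and 60.6 and 66.5 FPKM in HSCs without. Chil3, a further gene of the list, was 2.91 and 0.855 FPKM in LSK cells and 19.3 and 3.45 FPKM in HSCs and was not called. The part of such cells in the difference between the populations was not tested. Of 8 tested monocyte and macrophage genes, 3 were higher in LSK cells (median 0.60), namely Csf1r, the chemokine receptor Ccr2 (34.4 and 35 FPKM against 1.87 and 2.09 FPKM) and the fractalkine receptor Cx3cr1 (2.08 and 1.14 FPKM against 0.107 and 0.0948 FPKM). The defining macrophage genes were near 0 in all 4 libraries, with Adgre1 between 0.111 and 0.566 FPKM and C1qa listed at 0.

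Genes of mast cells and basophils made up a smaller set. Cpa3, the carboxypeptidase of mast cell granules, was 27.1 and 29.0 FPKM in LSK cells and 1.10 and 1.08 FPKM in HSCs (3.79 ± 0.23, adjusted p = 6.95e-06). Fcer1a, which encodes the binding chain of the IgE receptor, was 3.28 and 2.09 FPKM against 0.187 and 0.248 FPKM, and Cd200r3 was 6.01 and 4.20 FPKM against 0.734 and 0.677 FPKM. In all, 6 of 10 tested genes were higher in LSK cells and none in HSCs (median 1.32). Values were above 0 for 7 genes and below 0 for 3, namely Il4 (-0.995), Gata2 (-0.48) and Mitf (-0.11). Among the called genes, Hdc and Mcpt8 also belong to the primary granule and early myeloid list. The median of the mast cell and basophil list depended on which genes passed the filter. It was -0.48 with a floor of 5 FPKM, and -0.02 or -0.19 without the first or the second LSK library with RBCs.

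Lymphoid priming genes were the second group with large differences. Dntt, which encodes the terminal transferase that adds bases at antigen receptor joints, was 62.3 and 61.8 FPKM in LSK cells and 0.368 and 0.579 FPKM in HSCs (5.42 ± 0.37, adjusted p = 1.68e-05). Flt3, the receptor that marks multipotent progenitors, was 101 and 98.7 FPKM against 21.3 and 15.4 FPKM (2.39 ± 0.14, adjusted p = 5.58e-06). The LSK replicates lay close together for both genes, and no HSC library approached them. Satb1, a chromatin organizer of lymphoid genes, was 7.85 and 10.1 FPKM against 1.04 and 0.838 FPKM, and Il7r, the interleukin 7 receptor, was 3.78 and 5.16 FPKM against 0.0507 and 0.0896 FPKM. Of 19 tested genes, 12 were higher in LSK cells and none in HSCs (median 1.48), against 2.66% and 1.02% of all tested genes. Members that reached 1 FPKM in LSK libraries only, such as Dntt and Il7r, could be called only toward LSK cells. They are part of this count and median. The mature T cell marker Cd3e was low, between 0 and 0.0702 FPKM in the 4 libraries. Of 4 tested B cell genes only the kinase Blk was called, at 3.45 and 4.01 FPKM against 0.202 and 0.238 FPKM (list median 0.84), and of 2 tested T and NK cell genes only Nkg7, a granule protein that the myeloid list also holds (list median 0.81).

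**Figure D2:**
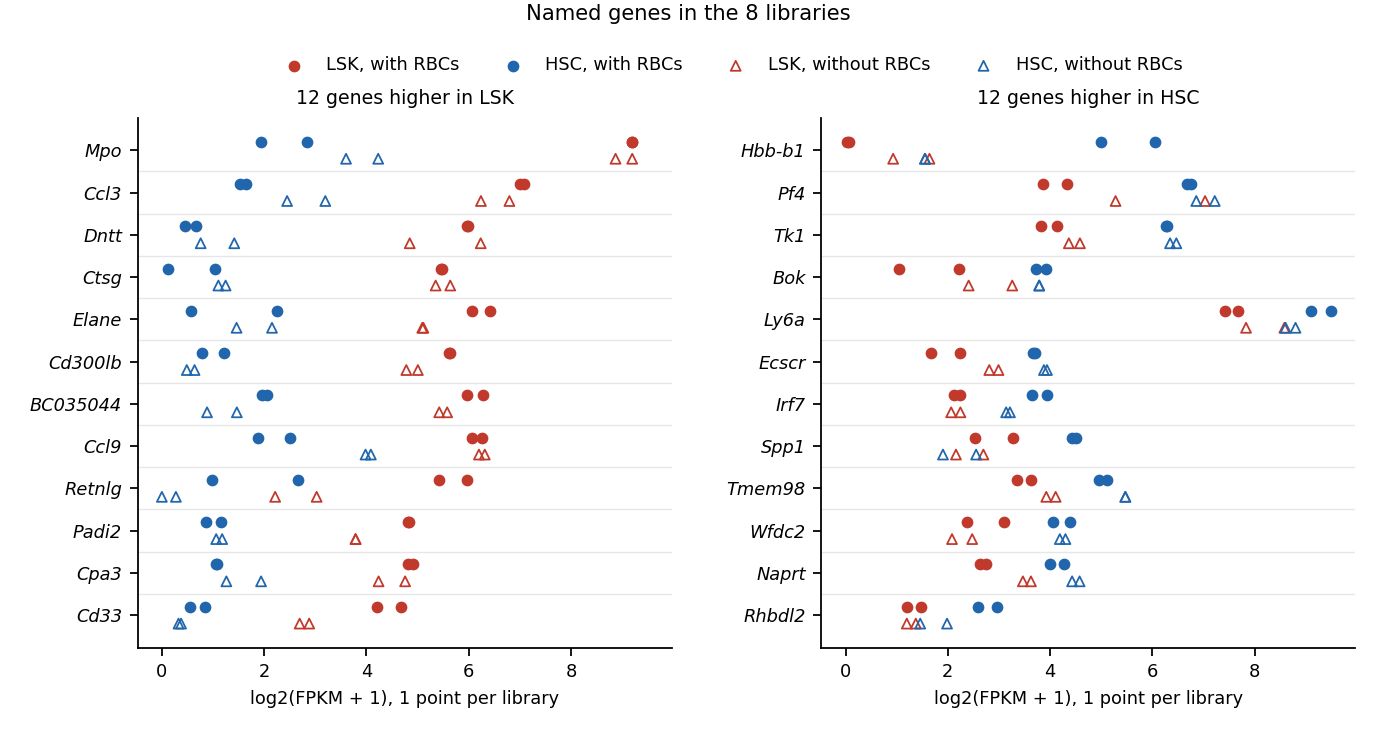
log2(FPKM + 1) of the 12 genes with the largest called differences in each direction, with 1 point per library; filled circles are libraries with RBCs, open triangles libraries without, red LSK cells and blue HSCs. Filled red and blue circles do not overlap for any of the 24 genes, which was a condition for naming them. The open triangles of Hbb-b1, Pf4, Ly6a, Spp1 and Rhbdl2 lie close together or overlap.

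Chemokine genes stood among the highest differences, and several of them are neighbors on chromosome 11. Ccl3, a ligand of CCR1, was 126 and 134 FPKM in LSK cells and 2.11 and 1.87 FPKM in HSCs (5.46 ± 0.23, adjusted p = 1.16e-06). Ccl9, also a ligand of CCR1, was 65.5 and 75.5 FPKM against 2.69 and 4.69 FPKM (3.96 ± 0.17, adjusted p = 1.27e-06). Wfdc17, a whey acidic protein family gene of myeloid cells, was 391 and 439 FPKM against 30.1 and 31.6 FPKM (3.70 ± 0.16, adjusted p = 1.33e-06). As for every called gene, the populations did not overlap, and the HSC libraries were well above 0 for Wfdc17. Ccl4 was 55.1 and 57.4 FPKM against 10.4 and 6.93 FPKM, and Ccl6 was 9.90 and 10.8 FPKM against 0.622 and 2.75 FPKM. Together with Wfdc18, these genes fill chr11:83572919-83711348 (GRCm38, the assembly of mm10), and all 6 tested genes in that span were higher in LSK cells. The chemokine list also held other secreted proteins, such as Il6, Angpt1, Wfdc17 and Spp1, so its counts are not of chemokines alone. Of its 18 tested genes, 5 were higher in LSK cells, among them Wfdc17, and 2 in HSCs, Pf4 and Spp1 (median 0.36). Across all tested genes these shares were 2.66% and 1.02%. The receptor Ccr1 (4.42 and 3.71 FPKM against 1.42 and 0.770 FPKM) was likewise higher in LSK cells.

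The bases before the starts of 4 of the named genes are shown because 2 of them, Ccl3 and Ccl9, are neighbors that were called together, Ctsg stands for the granule genes, and Pf4 for the genes higher in HSCs. They come from RefSeq on GRCm38.p6, at chr11:83649379-83649628 (Ccl3, minus strand), chr11:83578637-83578886 (Ccl9, minus strand), chr14:56102575-56102824 (Ctsg, minus strand) and chr5:90772185-90772434 (Pf4, plus strand), each with the 250 bases before the gene's start, outside the exons of the gene. Capitals mark matches, on either strand, to the letters GAGGAA, as bound by the myeloid factor PU.1, and AACTG, as bound by MYB. TTCCTC and CAGTT are the same letters read from the other strand.
Ccl3: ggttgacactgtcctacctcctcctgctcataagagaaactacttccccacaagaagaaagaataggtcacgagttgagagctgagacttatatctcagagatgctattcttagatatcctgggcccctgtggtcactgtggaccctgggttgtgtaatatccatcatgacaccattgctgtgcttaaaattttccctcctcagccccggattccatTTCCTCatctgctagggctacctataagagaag
Ccl9: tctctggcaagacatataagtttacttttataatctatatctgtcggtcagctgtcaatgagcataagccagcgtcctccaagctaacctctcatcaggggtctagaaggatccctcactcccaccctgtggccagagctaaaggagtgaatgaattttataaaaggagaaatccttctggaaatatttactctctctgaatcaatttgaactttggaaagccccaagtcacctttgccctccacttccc
Ctsg: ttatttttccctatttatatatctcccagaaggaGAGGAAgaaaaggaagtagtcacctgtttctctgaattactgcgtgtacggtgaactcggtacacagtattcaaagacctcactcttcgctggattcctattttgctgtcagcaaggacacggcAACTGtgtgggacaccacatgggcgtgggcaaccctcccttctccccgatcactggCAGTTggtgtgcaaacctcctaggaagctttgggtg
Pf4: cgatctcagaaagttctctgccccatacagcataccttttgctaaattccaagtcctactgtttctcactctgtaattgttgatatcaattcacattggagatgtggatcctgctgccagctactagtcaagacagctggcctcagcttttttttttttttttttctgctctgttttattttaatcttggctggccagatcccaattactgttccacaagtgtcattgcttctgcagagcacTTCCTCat
GAGGAA was found in the windows of Ccl3, Ctsg and Pf4, and AACTG in that of Ctsg, at 2 places. Such short letters are common: 23.13% of the 27025 mouse promoter windows of this length held GAGGAA and 39.13% held AACTG.

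Immune receptors of several families were also higher in LSK cells. Cd300lb, an activating receptor of myeloid cells, was 48.4 and 47.8 FPKM against 0.712 and 1.33 FPKM in HSCs (4.62 ± 0.17, adjusted p = 6.97e-07), and its neighbors Cd300a and Cd300c were called as well. Cd33, a sialic acid-binding lectin, was 17.5 and 24.6 FPKM against 0.790 and 0.472 FPKM (3.74 ± 0.19, adjusted p = 2.91e-06). BC035044 was 61.4 and 76.5 FPKM against 2.86 and 3.17 FPKM, and overlaps Clec2i on the other strand. Padi2, which converts arginine to citrulline in proteins, was 26.9 and 27.4 FPKM against 0.819 and 1.24 FPKM, and overlaps the gene Gm13031 on the other strand. The signaling chains of such receptors followed: Tyrobp was 237 and 257 FPKM against 48.4 and 34.8 FPKM, and Fcer1g was 209 and 215 FPKM against 73.8 and 77.2 FPKM. In the homing and adhesion list, 9 of 36 tested genes were higher in LSK cells and 2 in HSCs (median 0.19). The integrin Itgb5 was the second largest of these, at 30.4 and 33.2 FPKM against 2.01 and 1.99 FPKM, while the junction genes Jam2 (1.88 and 1.72 FPKM against 5.31 and 4.65 FPKM) and Jam3 (3.91 and 3.96 FPKM against 8.09 and 9.83 FPKM) were higher in HSCs. Of 33 cytokine receptors, 6 were higher in LSK cells and 1, the leptin receptor Lepr, in HSCs (1.83 and 1.53 FPKM against 4.56 and 6.22 FPKM, list median 0.31). For this list and the homing list, the shares over all tested genes were 2.66% toward LSK cells and 1.02% toward HSCs.

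Transcription factors of lineage choice differed in 7 of 53 cases, all higher in LSK cells, against 2.66% of all tested genes. Besides Irf8 and Satb1, these were Cebpa, the factor of granulocyte and monocyte commitment (13.6 and 13.9 FPKM against 1.72 and 2.30 FPKM), Tcf7 and Lef1, a pair of factors of T cell development (6.31 and 7.15 against 0.676 and 0.166 FPKM, and 6.20 and 5.56 against 1.43 and 1.44 FPKM), Cebpd and Bcl6. The median of the list was 0.06, and it was -0.09 with the libraries rescaled to a common 75th percentile and -0.04 without the second LSK library. The erythroid factor Gata1 was 22.9 and 24.5 FPKM against 17.7 and 27.5 FPKM, and its libraries overlapped. In the Notch pathway, 5 of 23 tested genes were higher in LSK cells, again against 2.66% (median 0.12, or -0.03 with the 75th percentile scaling). Notch1 was 5.63 and 5.67 FPKM against 1.99 and 2.29 FPKM (1.08 ± 0.15, adjusted p = 0.000778), and the protease Adam17, which cleaves Notch receptors among many proteins, was 66.6 and 70.7 FPKM against 20.8 and 25.0 FPKM. The Notch target Hes1 was 13 and 12 FPKM in LSK cells and 21.3 and 16.4 FPKM in HSCs, a difference of -0.55 that was not called (adjusted p = 0.0691).

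The genes higher in HSCs included some of HSC identity and some shared with megakaryocytes. Of 27 tested HSC identity genes, 5 were higher in HSCs, against 1.02% of all tested genes. None was higher in LSK cells, and 26 had values below 0 (median -0.48). Tcf15, a factor of quiescent HSCs, was 7.30 and 5.87 FPKM in LSK cells and 19.8 and 16.3 FPKM in HSCs (-1.33 ± 0.15, adjusted p = 0.000377). Fgd5, whose locus marks long-term HSCs, was 2.27 and 1.91 FPKM against 6.38 and 6.37 FPKM (-1.26 ± 0.15, adjusted p = 0.000381), and Rbpms2 was 4.23 and 5.29 FPKM against 11.2 and 15.6 FPKM. The HSC libraries lay above the LSK libraries for each, by less than 4-fold. Other regulators stayed under the 2-fold threshold: Mecom was 13.3 and 15.1 FPKM against 27.4 and 26.1 FPKM (-0.87), and Hlf was 30.9 and 33.9 FPKM against 38.2 and 39.7 FPKM (-0.26). Vwf, the gene of von Willebrand factor, which both this list and the megakaryocyte list hold, was 5.4 and 4.9 FPKM against 12.4 and 11.3 FPKM.

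Pf4, the platelet chemokine CXCL4, was 13.5 and 19.1 FPKM in LSK cells and 106 and 101 FPKM in HSCs (-2.61 ± 0.43, adjusted p = 0.00215). Without RBCs it was 130 and 37.8 FPKM in LSK cells and 148 and 115 FPKM in HSCs, so that 1 of the LSK libraries without RBCs also lay below all HSC libraries. Mmrn1, a protein of platelet granules, was 23.4 and 25.5 FPKM against 64.9 and 62.2 FPKM (-1.34 ± 0.09, adjusted p = 1.24e-05). Thbs1, which encodes thrombospondin 1, a protein of platelets and of other cells, went the other way, at 119 and 139 FPKM in LSK cells and 30.0 and 30.2 FPKM in HSCs. Of 21 tested megakaryocyte and platelet genes, 3 were higher in HSCs and 1 in LSK cells (median -0.33), against 1.02% and 2.66% of all tested genes. The list's summed values lay close together, at 868 and 906 FPKM against 910 and 949 FPKM.

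Most DNA replication genes had lower values in LSK cells than in HSCs, although most differences stayed under 2-fold. Of 40 genes, 3 were called higher in HSCs, against 1.02% of all tested genes. Tk1, the thymidine kinase of S phase, was 16.5 and 13.1 FPKM in LSK cells and 75.8 and 77.2 FPKM in HSCs (-2.30 ± 0.12, adjusted p = 2.91e-06); it overlaps Afmid on the other strand. Lig1, the replicative DNA ligase, was 40.6 and 41.3 FPKM against 96.0 and 86.2 FPKM, and Mcm5, a subunit of the replicative helicase, was 74.7 and 69.4 FPKM against 159 and 156 FPKM. These 3 genes were called, and 39 of the 40 genes of the S phase list had values below 0, with a median of -0.57. Rrm2, for example, was 113 and 107 FPKM against 127 and 116 FPKM. Of 40 genes of mitosis none was called (median -0.06), and Mki67 was 9.47 and 8.82 FPKM against 10.2 and 9.99 FPKM. A list of 24 genes of quiescence and the CDK inhibitors also held Ccnd1, Ccnd2, Ccnd3, Cdk4 and Cdk6. Its median of 0.26 thus mixes genes that restrain and genes that promote the cell cycle. Btg2, an antiproliferative gene, was higher in LSK cells (22.5 and 29.8 FPKM against 11.8 and 10.1 FPKM). Ccnd1, which encodes cyclin D1, was higher in HSCs (3.40 and 1.99 FPKM against 8.86 and 6.11 FPKM). No other gene of the list was called, and 3.68% of all tested genes were. Cdkn1c, which encodes the CDK inhibitor p57, was 2.74 and 3.23 FPKM against 6.75 and 6.59 FPKM (-0.95), whereas Cdkn1a, which encodes p21, was 190 and 184 FPKM against 99.7 and 87.6 FPKM (0.99), and both stayed under the fold threshold. Of 24 p53 targets, 4 were higher in LSK cells, against 2.66% of all tested genes, and 23 had values above 0 (median 0.57). Pmaip1, which encodes the proapoptotic protein NOXA, was 20.4 and 16.8 FPKM against 0.903 and 2.09 FPKM (3.01 ± 0.23, limma adjusted p = 3.17e-05).

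The remaining genes higher in HSCs came from several functions. Bok, a member of the BCL-2 family, was 3.66 and 1.06 FPKM against 14 and 12.3 FPKM (-2.19 ± 0.35, adjusted p = 0.00207). Ecscr, a surface protein of endothelial cells, was 2.2 and 3.7 FPKM against 12.1 and 11.7 FPKM, and Spp1, which encodes osteopontin, was 8.65 and 4.76 FPKM against 20.4 and 21.8 FPKM. Naprt, an enzyme of NAD synthesis, was 5.68 and 5.21 FPKM against 18.3 and 15 FPKM. The LSK replicates of Bok and Spp1 differed widely, yet stayed below both HSC libraries. Tmem98 (11.4 and 9.26 FPKM against 29.8 and 33.7 FPKM), Wfdc2 (4.17 and 7.54 against 15.5 and 20 FPKM) and the rhomboid protease Rhbdl2 (1.80 and 1.29 against 6.74 and 5.02 FPKM) completed the 12 largest. Irf7, a regulator of type I interferon genes that overlaps Phrf1 on the other strand, was 3.70 and 3.32 FPKM against 14.3 and 11.6 FPKM (-1.62 ± 0.15, adjusted p = 8.75e-05). It and Oas2 were the only called genes of 31 in the interferon list (median -0.20), and Rsad2 pointed the other way without a call, at 7.73 and 9.33 FPKM against 4.11 and 4.04 FPKM. Of 8 Hox genes, Hoxb2 alone was called, higher in HSCs, at 1.27 and 1.83 FPKM against 5.91 and 4.32 FPKM (list median -0.26, or 0.06 with a floor of 5 FPKM). The interferon and Hox counts stand beside 1.02% of all tested genes called higher in HSCs.

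Alpha-globin values and the sum of Hbb-b1 and Hbb-bs set the cocultures apart from the cultures without RBCs in both populations. The beta-globin sum that includes Hbb-b2 was not higher in coculture. Hba-a1 and the nearly identical Hba-a2 summed to 36.1 and 43.4 FPKM in LSK cells and 121 and 89.2 FPKM in HSCs with RBCs, and to between 0.882 and 1.75 FPKM in the 4 libraries without. Hbb-b1 was 0.0438 and 0.0145 FPKM in LSK cells and 65.1 and 31 FPKM in HSCs, which gave it the largest called difference toward HSCs outside short RNA genes (-5.48 ± 0.32, adjusted p = 5.65e-06). The closely related Hbb-bs was 18.9 and 19.4 FPKM in LSK cells and 0.00753 and 19.1 FPKM in HSCs. These copies share reads, their values were divided differently in each library, and the call of Hbb-b1 is uncertain. The sum of both genes was 19.0 and 19.4 FPKM in LSK cells and 65.1 and 50.1 FPKM in HSCs with RBCs. It was between 0.912 and 2.29 FPKM in the 4 libraries without. With Hbb-b2 added, the sum with RBCs was 147 and 73.5 FPKM against 185 and 209 FPKM. Without RBCs this last sum was 110 and 175 FPKM in LSK cells, overlapping the LSK values with RBCs, and 281 and 337 FPKM in HSCs, above the HSC values with RBCs. The part of RNA from the added RBCs in these values was not tested. Slc4a1, a marker of maturing erythroid cells, was near 0, between 0 and 0.0186 FPKM. Of 18 tested erythroid genes, Hba-a1 and Hbb-b1 were higher in HSCs and the carbonic anhydrase Car1, at 1.42 and 1.08 FPKM against 0.0783 and 0 FPKM, in LSK cells (median -0.30). Across all tested genes, 1.02% were called higher in HSCs and 2.66% in LSK cells.

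Counts of calls in the metabolic, housekeeping and remaining lists stand beside a share of 3.68% called among all tested genes. In glycolysis 1 of 25 genes was called, the hexokinase Hk3 of myeloid cells, at 28.7 and 27.7 FPKM in LSK cells against 6.17 and 6.70 FPKM in HSCs, while the list median was -0.30. Of 80 genes of oxidative phosphorylation, Cox6a2, a subunit known from heart and skeletal muscle, was called higher in LSK cells, while 68 had values below 0 (median -0.25). None of 36 ribosome biogenesis genes was called, with 35 below 0 and a median of -0.23. None of 24 cholesterol synthesis genes was called, with a median of 0.01 that turned to -0.01, -0.03 or -0.14 under quantile, median or 75th percentile scaling. Of 82 cytosolic ribosomal protein genes, the muscle paralog Rpl3l was called higher in LSK cells (median -0.04, or 0.02 under quantile normalization); Rps27 ranged from 7.37 to 743 FPKM within the 4 libraries and was not called. None of 31 antioxidant and heme response genes was called (median 0.06, or -0.09 with the 75th percentile scaling); Hmox1, the heme oxygenase, was 13.6 and 16.8 FPKM against 7.92 and 7.84 FPKM. Of 10 MHC class II genes, H2-Ob, a modulator of peptide loading in B cells, was higher in LSK cells, at 60.6 and 66.6 FPKM against 9.62 and 8.77 FPKM (list median 0.26), and none of 17 MHC class I genes was called (median 0.08, or -0.08 with the 75th percentile scaling). Of 25 immediate early genes, Fos and Btg2 were higher in LSK cells (median 0.03, or -0.02 and -0.13 under median and 75th percentile scaling), and Egr1 was 145 and 147 FPKM against 296 and 257 FPKM without a call.

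**Figure D3:**
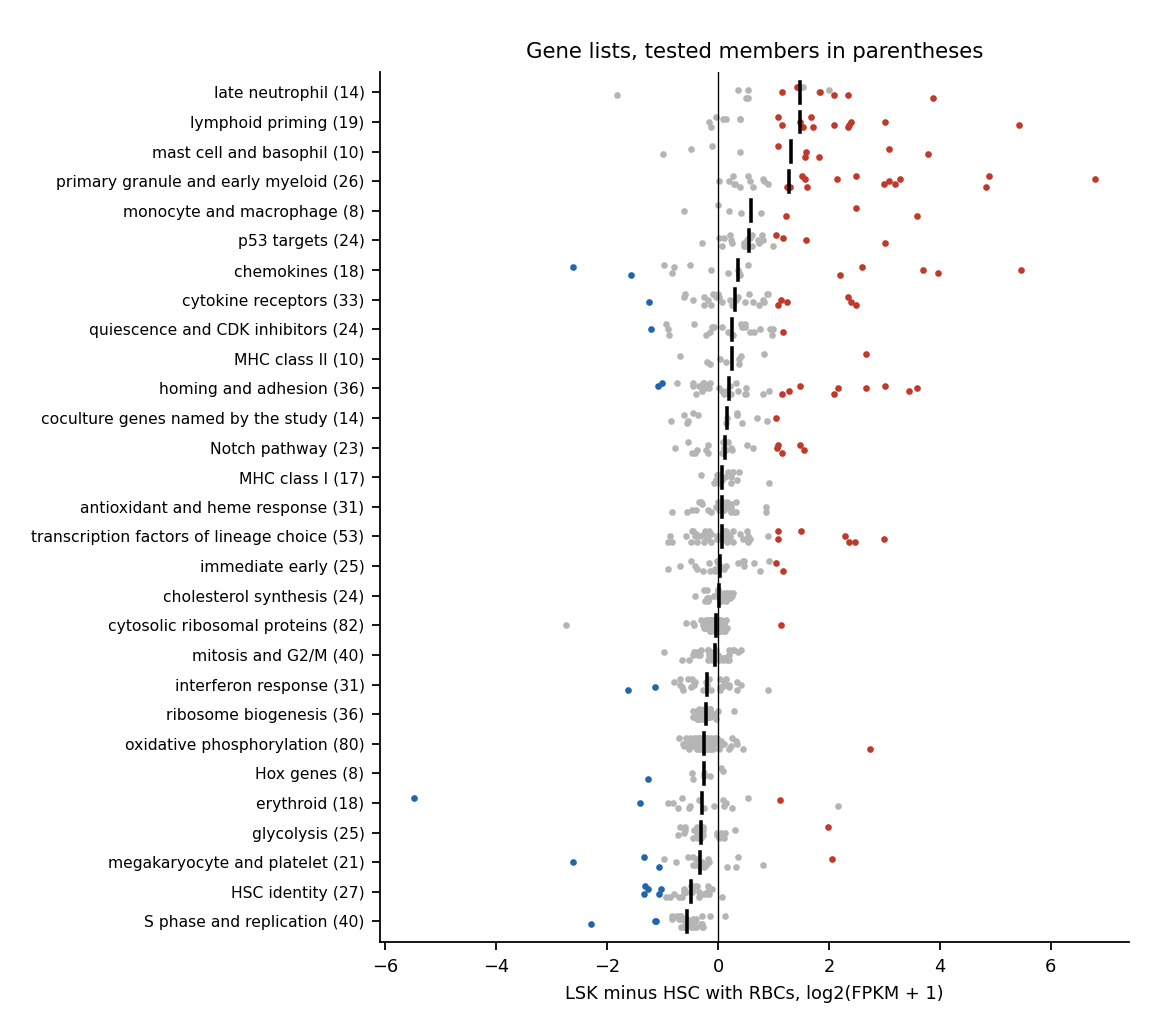
LSK minus HSC difference with RBCs on the log2(FPKM + 1) scale (horizontal axis) for the tested members of 29 of the gene lists, 1 point per gene, with red for genes called higher in LSK cells, blue for genes called higher in HSCs and gray for the rest; black bars are list medians. Myeloid, mast cell and lymphoid lists lie to the right, and the S phase and HSC identity lists to the left. In these last lists, 3 of 40 and 5 of 27 genes were called higher in HSCs, against 1.02% of all tested genes.

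The 14 genes that the study named for their shared rise with RBCs were chosen on these same libraries for comparable levels in both populations. Of these, Fos alone was called between the cocultured populations, at 30.9 and 35.3 FPKM in LSK cells and 15.7 and 15.2 FPKM in HSCs (1.05 ± 0.19, adjusted p = 0.00398), and the list median was 0.15. Chad was 265 and 236 FPKM against 509 and 403 FPKM (-0.86), and Adgre5 was 58.8 and 62.0 FPKM against 30.7 and 34.2 FPKM (0.88). Neither reached 2-fold.

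The distance between the populations was then set beside that in culture alone, on 12003 genes with at least 1 FPKM in at least 2 of the 8 libraries. Over single pairs of libraries, the root-mean-square log2 difference between LSK cells and HSCs was 0.588 to 0.597 with RBCs and 0.531 to 0.553 without, and the ranges did not overlap. Replicates of a group lay 0.385 to 0.421 apart, and libraries of 1 population with and without RBCs lay 0.411 to 0.459 apart in HSCs and 0.444 to 0.497 in LSK cells. After the part that replicate spread adds was subtracted, the group means of LSK cells and HSCs were 0.431 apart with RBCs and 0.371 without, a ratio of 1.16. Taken over the 16 ways to set a pair with RBCs against a pair without, the uncorrected ratio ran from 1.06 to 1.12. These pairs share libraries, so the ratio carries no p. The called genes made up 48.8% of the squared difference with RBCs, and the 100 genes with the largest differences made up 38.9%.

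The direction of the difference was largely shared between conditions. The cosine between the differences with and without RBCs over the 12003 genes was 0.618, or 0.924 once replicate spread was taken out of both lengths. LSK and HSC libraries without RBCs define 1 axis, scaled so that the group means lie at 0.5 and -0.5. On this axis the LSK libraries with RBCs lay at 0.407 and 0.448 and the HSC libraries with RBCs at -0.230 and -0.297. On the axis defined by the libraries with RBCs, the LSK libraries without RBCs lay at 0.177 and 0.181 and the HSC libraries without at -0.352 and -0.394. Replicate spread lengthens an axis for the libraries that define it, so only the positions of the other libraries can be compared. The populations remained on opposite sides in every case.

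**Figure D4:**
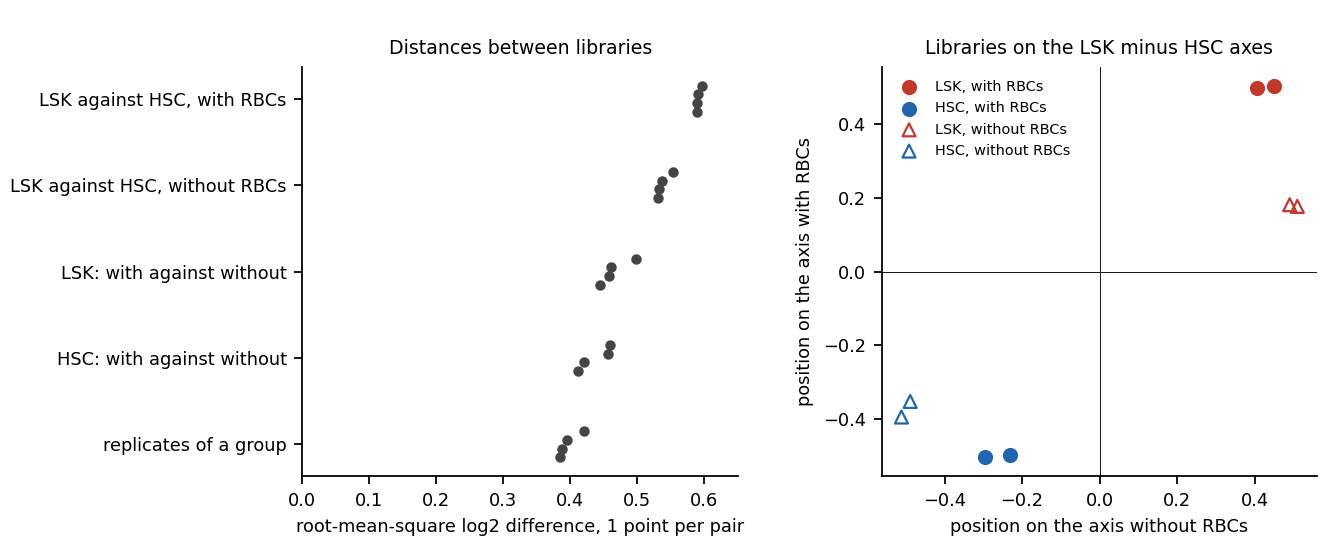
Left, root-mean-square log2(FPKM + 1) difference for single pairs of libraries, 1 point per pair; right, positions of the 8 libraries on the LSK minus HSC axis without RBCs (horizontal) and with RBCs (vertical). The pairs of LSK cells and HSCs with RBCs lie at 0.588 to 0.597, to the right of those without RBCs at 0.531 to 0.553, and both populations keep their side of 0 on both axes.

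On these 12003 genes, 313 (2.61%) were higher in LSK cells and 120 higher in HSCs with RBCs, and 195 (1.62%) and 124 (1.03%) without. Of the genes higher in LSK cells, 148 were called in both conditions, 47.3% of those with RBCs and 75.9% of those without. Of the genes higher in HSCs, 43 were called in both, 35.8% and 34.7%, and no gene was called in opposite directions. Genes called in 1 condition usually kept their sign in the other, as 414 of 433 did from coculture to culture alone and 315 of 319 the other way. The genes called higher in LSK cells with RBCs had a median difference of 1.38 with RBCs and 0.98 without, and those called without RBCs had 1.47 without and 1.55 with. The genes called higher in HSCs with RBCs had -1.15 with and -0.87 without, and those called without RBCs had -1.22 without and -0.86 with. A median is inflated in the condition that chose the genes. Although 242 genes were called with RBCs only, the change of the difference itself passed the test in 6 of them, and in 3 of the 128 called without RBCs only.

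Group by group, the lists with the largest differences in coculture had smaller medians in culture alone. The lymphoid priming list had a median of 1.48 with RBCs and 0.67 without, with 12 and 9 of 19 genes higher in LSK cells. The primary granule list had 1.27 and 0.89, with 14 and 12 of 26 genes. The late neutrophil list had 1.48 and 0.98, with 6 and 4 of 14 genes. Over single pairs of libraries with RBCs its median ran from 0.38 to 1.85, a range that holds the 0.98 without RBCs. For the mast cell and basophil list the medians were 1.32 and 0.17, with 6 of 10 and 2 of 11 genes, but the first of these medians fell to -0.02 or -0.19 when an LSK library with RBCs was left out and to -0.48 with a floor of 5 FPKM. The S phase list lay at -0.57 and -0.26, with 3 genes and 1 gene of 40 higher in HSCs, whereas the HSC identity list lay nearer to 0 with RBCs, at -0.48 against -0.72, with 5 of 27 and 6 of 28 genes higher in HSCs. These differences between medians were not tested. The lists with the largest differences were picked on the values with RBCs, which inflates their medians in that condition.

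The change of the difference was called for 13 of the 12003 genes (0.108%). In 10 of these the populations lay farther apart with RBCs, and in 3 without. Wfdc17 changed most among protein-coding genes outside the globins: without RBCs it was 204 and 139 FPKM in LSK cells and 77.5 and 98.7 FPKM in HSCs, and with RBCs 391 and 439 FPKM and 30.1 and 31.6 FPKM, a change of 2.77 (limma interaction term, adjusted p = 0.00306). It was thus higher with RBCs in LSK cells and lower in HSCs, with no overlap of libraries in either population. Its neighbor Ccl9 was 72.4 and 78.5 FPKM in LSK cells without RBCs, close to its values with RBCs, and in HSCs it was 14.8 and 16.0 FPKM without RBCs and 2.69 and 4.69 FPKM with them (change 1.74, adjusted p = 0.0453). Sdc1, which encodes the proteoglycan syndecan 1, was 7.51 and 8.19 FPKM in LSK cells without RBCs and 21.8 and 25.2 FPKM with them, while HSCs stayed between 2.88 and 4.13 FPKM (change 1.64, adjusted p = 0.0259). Pglyrp1, a bactericidal protein of neutrophil granules, was alike in both populations without RBCs (45.4 and 61.7 FPKM against 49.2 and 56.0 FPKM) and 80.0 and 76.6 FPKM against 28 and 28.9 FPKM with them (change 1.42, adjusted p = 0.0259). Fbp1, the gluconeogenic fructose bisphosphatase (1.30), Mylpf, a muscle myosin light chain (1.48), and Pcp4l1 (1.22) had changes in the same direction. Apoe, the lipid carrier, was 88.9 and 87.0 FPKM in LSK cells and 217 and 217 FPKM in HSCs without RBCs and 102 and 120 FPKM against 135 and 115 FPKM with them, so that the populations lay closer in coculture (change 1.12, adjusted p = 0.0176). Lat, an adapter of T cell and platelet signaling, was 20.9 and 19.6 FPKM in LSK cells and 14.6 and 15.4 FPKM in HSCs without RBCs and 13.3 and 12.3 FPKM against 21.3 and 23.6 FPKM with them, a change of order between the populations (-1.17, adjusted p = 0.0189). The count of 13 depended on the fit: it was 1 without the mean-variance trend, 2 with all genes above 0, 24 with short RNA genes left out, and 6 without the second LSK library with RBCs.

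**Figure D5:**
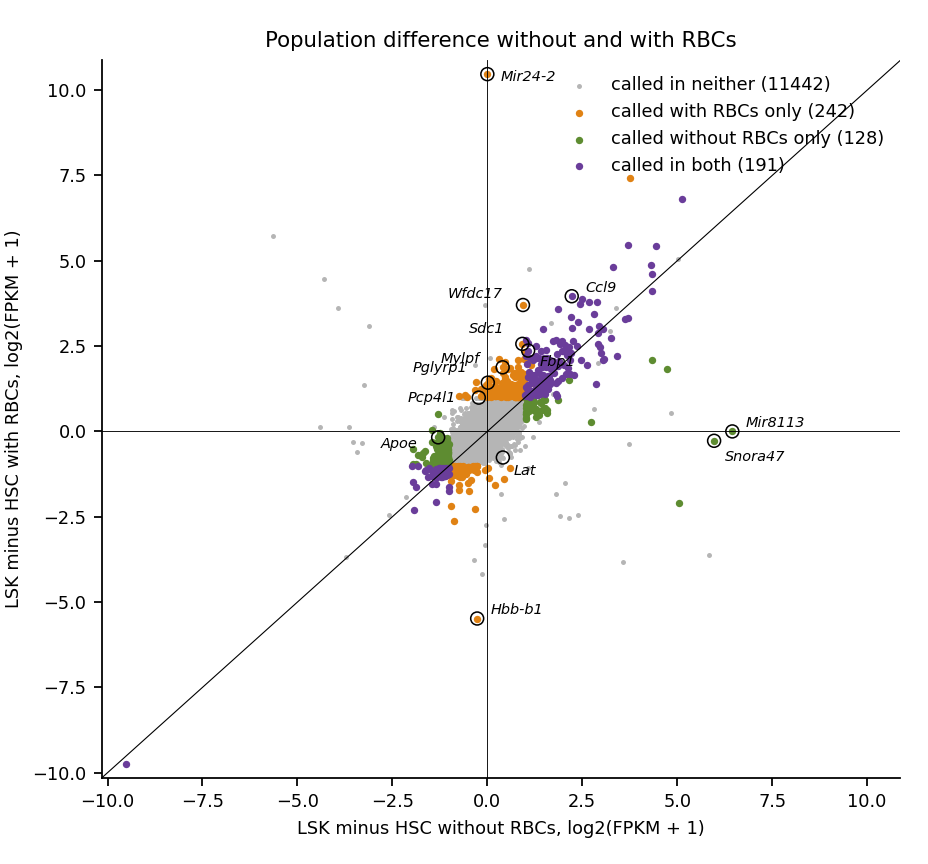
LSK minus HSC difference on the log2(FPKM + 1) scale without RBCs (horizontal axis) and with RBCs (vertical axis), 1 point per gene, colored by the condition in which it was called; the line marks equal differences. Circles mark the 13 genes whose difference changed, among them Wfdc17, Ccl9 and Sdc1 above the line and Hbb-b1 and Lat below it.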

How the data were processed

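The authors deposited 1 FPKM value per gene symbol and library; the submitters' processing notes list TopHat2 2.1.1, Bowtie2 2.2.8, SAMtools 0.1.18, Cuffdiff 2.2.1 and the genome mm10, without giving the order. The annotation is not given in the sources used here. Replicates were not pooled, and 0 columns belonged to other samples.

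From these values log2(FPKM + 1) was computed. limma 3.58.1 in R 4.3.3 fitted the means of the 4 groups together over 8 libraries, with a mean-variance trend and no replicate block, leaving 4 residual degrees of freedom (prior 5.67). The with-RBC contrast used 11727 genes, and comparisons across conditions used 12003. A gene was called at an adjusted p (Benjamini-Hochberg) under 0.05 with a 2-fold difference. Each distance was the root-mean-square difference of group means, less the part added by replicate variance. On simulated data of 11727 genes, 197 of 200 changed genes and 1 unchanged gene were called. The rate of missed or false calls among the reported genes, including those near 2-fold or under 5 FPKM, was not tested.

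Named genes were first the 12 largest called differences per direction. These had at least 5 FPKM in the higher population and no overlap between the populations, with short RNA genes left out. Also named were the genes whose difference changed, up to 4 members per list, the gate genes, the called lineage factors and the study's 14 genes. Other genes were named after their values were seen, as were the examples below threshold. Members and lists were chosen with earlier results of these data known. Positions came from GENCODE M21 (GRCm38), promoters from RefSeq. Depth was read from FPKM steps: 84.66% of 7378 low genes had whole steps within 0.02. Alternatives covered pseudocount, filter, scaling, fit, thresholds, the Student test, distance measures and leaving out each library. Some genes are not reported here.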

Additional observations from a re-analysis of the deposited data

Results flagged for a closer look

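The LSK minus HSC difference depended on the presence of RBCs, by the interaction term in limma (a change of at least 2-fold at a Benjamini-Hochberg adjusted p under 0.05), for 13 of 12003 genes, against 1503 genes at an unadjusted p under 0.05. On the log2(FPKM + 1) scale the difference moved toward LSK cells with RBCs for Wfdc17 (2.77), Ccl9 (1.74), Sdc1 (1.64), Mylpf (1.48), Pglyrp1 (1.42), Fbp1 (1.30), Pcp4l1 (1.22) and Apoe (1.12), and toward HSCs for Hbb-b1 (-5.21) and Lat (-1.17). The value of Hbb-b1 is uncertain, because it shares reads with Hbb-bs. The sum of both was 19.0 and 19.4 FPKM in LSK cells and 65.1 and 50.1 FPKM in HSCs with RBCs. It was between 0.912 and 2.29 FPKM in the libraries without RBCs. The mean difference between culture with and without RBCs was -1.84 in HSCs and -0.10 in LSK cells for Ccl9, -1.47 and 1.29 for Wfdc17, -0.86 and 0.55 for Pglyrp1, -0.84 and 0.46 for Fbp1, -0.80 and 0.33 for Apoe, -0.72 and 0.50 for Pcp4l1, -0.65 and 0.83 for Mylpf, and -0.18 and 1.47 for Sdc1. The remaining genes encode short RNAs, whose FPKM values scale few fragments by a short length. The difference moved by 10.47 for Mir24-2, which was 1458 and 1375 FPKM in LSK libraries with RBCs and listed at 0 in the other 6 libraries, by -6.45 for Mir8113, which lies within Cd27 and was above 0 in LSK libraries without RBCs only (158 and 47.2 FPKM), and by -6.24 for Snora47, which was listed at 0 in HSCs without RBCs only.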

How the results depend on the processing

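As reported, 312 and 120 genes were higher in LSK cells and in HSCs with RBCs, 195 and 124 without, 13 genes changed their difference, and the ratio of distances was 1.16. A pseudocount of 0.1 gave 216 and 218 genes higher in HSCs with and without RBCs and a ratio of 1.10, and a pseudocount of 5 gave 115, 24, 80 and 30 genes and a ratio of 1.21. A floor of 5 FPKM gave 196 and 72 genes with RBCs. Rescaling to a common 75th percentile gave 207 genes higher in HSCs, with 248 in LSK cells, and a ratio of 1.18. No fold threshold gave 1459, 1521, 832 and 875 genes. The Student test gave 0, 0, 0 and 0 after adjustment (3184 and 1875 genes at an unadjusted p under 0.05 with and without RBCs, against 4482 and 3445 in limma). The count of genes whose difference changed was 2 with all genes above 0, 20 under quantile normalization, 24 without short RNA genes, 1 without the trend, 33 at an adjusted p under 0.10 and 8 with the replicate block. The ratio of distances by 1 minus Pearson's r was 1.23. Leaving out each library gave 200 to 330, 99 to 146, 189 to 199 and 123 to 141 genes, 6 to 15 changed differences and ratios of 1.14 to 1.21. The count of changes was 6 without the second and 8 without the first LSK library with RBCs, and 8 without the first HSC library without RBCs. A group left with a single library was assumed to vary like the others. Replicates share only a number, with correlations of deviations from -0.07 to 0.10, and the replicate block gave 312 and 122 genes with RBCs and 194 and 126 without. Of the 24 genes named for the largest differences, all lost their call under the Student test, which called no gene; in limma, where still tested, Rhbdl2 alone lost its call, at a pseudocount of 5, while of 240 values for changed differences 81 lost their call, most often Fbp1. At this depth and with 2 libraries per group, genes near 1 FPKM rest on few fragments, and small differences between them were not detectable.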

Other observations

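Genes called higher in LSK cells with RBCs lay near each other in the genome more often than other tested genes lay near one of them. Of 299 such genes with a position in GENCODE, 71 (23.75%) had another within 100 kb, while 787 of 10947 other tested genes (7.19%) had one. For genes called higher in HSCs the shares were 4 of 112 (3.57%) and 398 of 11134 (3.57%). Besides the chemokine genes on chromosome 11, the groups were Cd300a, Cd300lb and Cd300c at chr11:114890041-114969157 (3 of 3 tested genes in the span), Siglecf, Siglecg, Nkg7 and Cd33 at chr7:43351341-43544428 (4 of 6), and pairs such as Fcgr2b and Fcgr3, Clec4d and Clec4e, and Cd1d1 and Cd1d2. Members of the same gene family are often neighbors, and the share was not tested against that. Some neighbors overlap on opposite strands, such as BC035044 with Clec2i and Padi2 with Gm13031, and cannot be told apart in unstranded libraries. The part of such overlaps in the share was not tested. Toward HSCs the pairs were Col4a1 and Col4a2, which encode the main chains of basement membrane collagen (3.34 and 2.77 FPKM in LSK cells against 6.76 and 9.08 FPKM in HSCs for Col4a1), and S100a4 and S100a6 (69.0 and 57.1 FPKM against 137 and 148 FPKM for S100a4).

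Mir1966, a microRNA gene, was 526 and 1393 FPKM in HSCs with RBCs, 934 and 570 FPKM in HSCs without, and listed at 0 in all 4 LSK libraries. It was 1 of 4 short RNA genes among the calls with RBCs. The others were Mir24-2 and Snora69, which were listed at 0 in HSCs with RBCs, and Snora65. Gal, which encodes the neuropeptide galanin, was 4.39 and 4.99 FPKM in HSCs with RBCs against 0.354 and 0 FPKM in LSK cells. Vegfa, an angiogenic growth factor, was 54.5 and 54.6 FPKM in LSK cells and 20.7 and 22.4 FPKM in HSCs with RBCs, against 15.6 and 17.5 FPKM and 12.7 and 9.66 FPKM without.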
